A study of Mus musculus with 20 samples.

Results

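The expression of 10 genes that mark microglia or encode complement C1q was described in the hippocampus of Fmr1 KO and WT mice. The genes were taken by symbol from the deposited tables: the C1q chain genes C1qa, C1qb and C1qc, the receptor genes Csf1r, Trem2, Cx3cr1 and P2ry12, the adaptor gene Tyrobp, and the marker genes Tmem119 and Aif1. All 10 were among the 13256 genes that each table lists, and all 10 were among the 13174 genes that reached 0.5 FPKM in at least 5 libraries and were tested.

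RNA from whole hippocampus was sequenced in 20 libraries, 5 in each of 4 groups: male Fmr1 KO, male WT (C57), female Fmr1 KO and female WT (C57). Fmr1 encodes FMRP, an RNA-binding protein, and fragile X syndrome in humans results from its loss. Titles call the mutants KO where the genotype field writes Fmr1 knockdown. The titles of all 4 groups also carry the tag Con, which was not interpreted here. Beyond this tag the labels used here give no allele, age or treatment of the mice and do not say whether animals were pooled. No label states that the 5 libraries of a group came from separate animals, so the p-values below rest on the spread from library to library, which may be technical. The unit is FPKM, in which fragments are divided by transcript length and by the library's mapped total. It allows levels of different genes to be compared, while the depth behind each value is unknown.

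Microglia are the resident macrophages of the brain and depend on signalling through CSF1R, the receptor for the growth factors CSF1 and IL-34. In the brain they are a main source of C1q, the starting protein of the classical complement pathway, which is built from A, B and C chains and in the developing mouse brain tags synapses for removal. TREM2 is a lipid-sensing surface receptor that signals through the adaptor TYROBP (DAP12), P2RY12 senses purine nucleotides and guides microglial processes, CX3CR1 is the receptor for neuronal fractalkine, TMEM119 is a membrane protein used as a microglial marker, and AIF1 (IBA1) is an actin-binding protein used to stain these cells.

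The C1q genes lie side by side on the minus strand of chromosome 4 (mm10), C1qb at 136880129 to 136886187, C1qc at 136889804 to 136893065 and C1qa at 136895917 to 136898803. The gap between C1qb and C1qc is 3616 bases and that between C1qc and C1qa is 2851 bases. Promoter windows were matched in RefSeq (GRCm38.p6) for 6 of the 10 genes, Cx3cr1, P2ry12, Aif1, C1qb, C1qc and Trem2, and the other 4 are Tmem119, Csf1r, C1qa and Tyrobp. The 250 bases before each RefSeq start were searched on both strands for a motif of PU.1 (GAGGAAGT), the transcription factor that macrophages and microglia require, and for the Ets core inside it (GGAAGT). The windows that hold a match are shown because they belong to neighbouring C1q genes and to the purinergic receptor gene, with the matched letters in capitals, read 5′ to 3′ on the gene's strand. The window of P2ry12 is chr3:59262986-59263235, that of C1qb is chr4:136886201-136886450, and that of C1qc is chr4:136893066-136893164, the 99 bases that lie before the gene's start in the deposited tables, all on the minus strand.
P2ry12: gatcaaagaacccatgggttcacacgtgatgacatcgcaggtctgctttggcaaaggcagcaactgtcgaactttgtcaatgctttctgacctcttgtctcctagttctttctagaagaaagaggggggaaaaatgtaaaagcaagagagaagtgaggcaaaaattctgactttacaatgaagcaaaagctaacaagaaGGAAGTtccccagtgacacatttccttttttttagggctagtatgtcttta
C1qb: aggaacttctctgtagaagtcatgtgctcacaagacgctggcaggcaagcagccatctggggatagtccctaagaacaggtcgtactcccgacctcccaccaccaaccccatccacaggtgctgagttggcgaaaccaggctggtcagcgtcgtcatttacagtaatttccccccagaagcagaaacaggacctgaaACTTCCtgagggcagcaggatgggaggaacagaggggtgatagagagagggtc
C1qc: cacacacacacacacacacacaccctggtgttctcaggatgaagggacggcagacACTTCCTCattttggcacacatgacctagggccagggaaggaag

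The Ets core stood 51 to 46 bases before the RefSeq start of P2ry12, on the gene's own strand. In C1qb it stood 53 to 48 bases before the start, on the other strand. The full PU.1 motif was found only in C1qc among the 6 windows, 195 to 188 bases before the RefSeq start and on the other strand. The stretch shown for C1qc stops short of that start, which lies inside the gene as placed in the deposited tables. The full window searched for C1qc was chr4:136892915-136893164. Of 32851 promoter windows of the same length in the table, 2.44% hold the PU.1 motif and 19.7% hold the Ets core. A motif of AP-1 (TGANTCA) matched 9 to 3 bases before the start of Trem2, and a motif of C/EBP (TTGCNNAA) matched 204 to 197 bases before the start of P2ry12, motifs found in 6.75% and 9.56% of all windows. These matches describe letters only, and binding was not measured.

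Fmr1 itself averaged 3.56 ± 0.187 FPKM in male KO libraries and 11.4 ± 0.527 FPKM in male WT libraries, and 3.32 ± 0.327 FPKM in female KO libraries and 10.6 ± 0.558 FPKM in female WT libraries (SD, n = 5 each). KO and WT ranges of Fmr1 did not overlap in either sex. Between 12766 and 12899 genes reached 0.5 FPKM in a library, and Pearson correlations between libraries ran from 0.977 to 0.990. Several libraries stood apart. Ttr, a choroid plexus gene, exceeded 500 FPKM in male KO 2, female KO 4 and 5 and female WT 4, and Prl, a pituitary hormone gene, exceeded 4 FPKM in female KO 2, 3 and 4. The libraries also differed in how expression followed the GC content of genes. The slope of log2 expression on GC content, per 10 percentage points and relative to the mean of all libraries, was between -0.0669 and 0.00678 in male KO, -0.0951 and 0.0103 in male WT, 0.0618 and 0.0759 in female KO, and -0.0279 and 0.0311 in female WT libraries. Female KO libraries were thus apart from the other 15 in this slope, and the C1q genes and Tmem119, at 57.4% to 59.5% GC, lie above the median gene at 49.7%.

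The measured markers of border macrophages and of blood leukocytes were low, while erythrocyte genes were not. The 5 erythrocyte genes summed to 343 to 586 FPKM in male KO and 318 to 456 FPKM in male WT libraries. In females the sums were 432 to 673 FPKM in KO and 310 to 562 FPKM in WT libraries. Of 10 listed markers of border macrophages, 4 were in the tables, with Mrc1, the mannose receptor gene, at a mean of 0.587 FPKM. Their summed level ran from 1.37 to 2.60 FPKM in male KO, 1.88 to 2.62 FPKM in male WT, 2.38 to 3.92 FPKM in female KO and 2.15 to 3.002 FPKM in female WT libraries. Of 17 listed markers of blood leukocytes 1 was in the tables, S100a9, at a mean of 0.778 FPKM. The other markers of both lists were not analysed here. In RNA of whole tissue, fewer cells of a type and less RNA per cell cannot be told apart.

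C1qa was the most abundant of the 10 genes, at a mean of 35.3 FPKM over the 20 libraries, followed by C1qb at 30.1 FPKM. C1qa was above C1qb in all 20 libraries, although their ranges over libraries overlapped. Tyrobp at 16.7 FPKM, P2ry12 at 16.4 FPKM, C1qc at 15.2 FPKM and Csf1r at 15.1 FPKM formed a middle group in which no neighbour was above the next in more than 12 of 20 libraries. Below them came Tmem119 at 6.45 FPKM, Cx3cr1 at 4.81 FPKM and Aif1 at 3.48 FPKM, with Cx3cr1 ranging over both of its neighbours. Trem2 was the lowest at 1.79 FPKM, below Aif1 in all 20 libraries and with no overlap of their ranges.

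**Figure D1:**
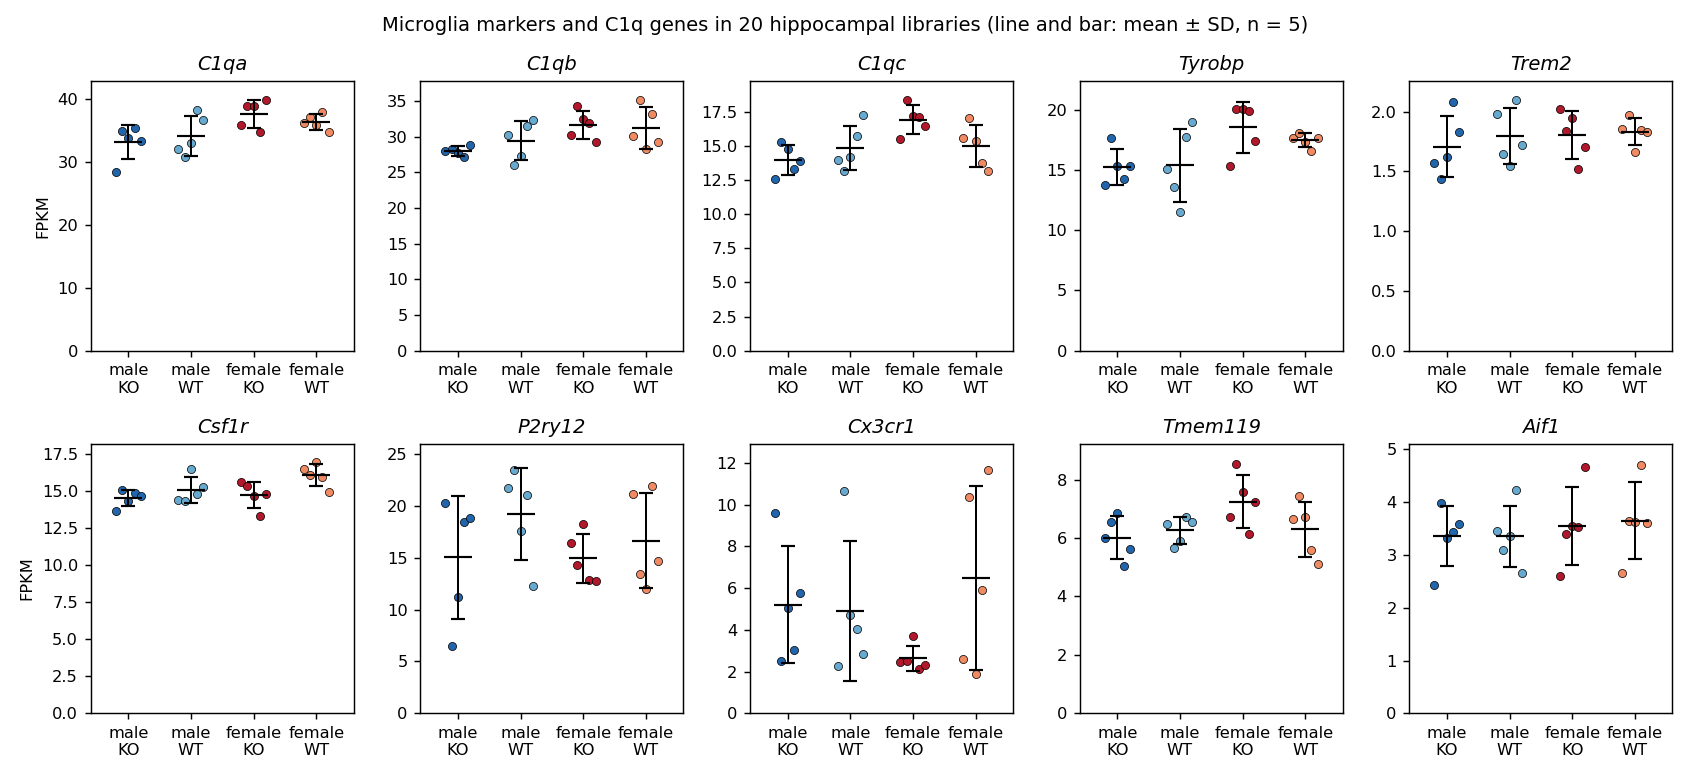
FPKM of the 10 genes (vertical axes, from 0) in the 5 libraries of each group; points are libraries, and the line and bar give the mean ± SD. C1qa, C1qb, C1qc and Csf1r vary little within groups, while Cx3cr1 spans 1.90 to 11.7 FPKM and P2ry12 spans 6.47 to 23.5 FPKM.

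No gene of the set passed the threshold in a comparison of KO with WT. With limma and Benjamini-Hochberg adjustment over all tested genes, 0 of 10 had an adjusted p under 0.05 in males, where 0.0455% of all tested genes passed, and 0 of 10 in females, where 3.32% passed. For the mean of the KO effects of both sexes the count was 0 of 10, against 3.22% of all tested genes (1.38% higher and 1.84% lower in KO), and for the male KO effect minus the female KO effect it was 0 of 10, against 0.0455%. At an unadjusted p under 0.05 the counts were 0 in males, 2 in females (Csf1r and C1qc), 1 for the mean effect (Csf1r) and 1 for the difference between the sexes (C1qc), where 8.69%, 19.5%, 18% and 10% of all tested genes lay under it. The median log2 difference of the 10 genes was -0.05 in males and 0.00 in females, and that of all tested genes was 0.00 in males and 0.01 in females. KO and WT ranges overlapped for all 10 genes in both sexes, while 2.0% of tested genes in males and 5.99% in females had ranges that did not overlap. An exact two-sided permutation test of KO against WT within each sex gave 2 of 20 p-values under 0.05, those of Csf1r (0.0317) and C1qc (0.0476) in females, and none after adjustment over the 20 tests, where both stood at 0.476.

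None of the C1q chain genes passed between KO and WT hippocampus. C1qa read 28.4, 34.8, 33.7, 35.3 and 33.3 FPKM in male KO libraries, against 32.0, 30.7, 32.9, 38.2 and 36.6 FPKM in male WT libraries. In females it read 35.7, 38.8, 38.8, 34.6 and 39.8 FPKM in KO libraries, against 36.1, 37.1, 35.8, 37.9 and 34.6 FPKM in WT libraries. The ranges of C1qa overlapped in both sexes, and its log2 difference was -0.04 (95% interval -0.17 to 0.09) in males and 0.05 (-0.08 to 0.17) in females.

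C1qb read 28.0, 28.3, 27.7, 27.1 and 28.8 FPKM in male KO libraries, against 30.3, 26.0, 27.2, 31.4 and 32.4 FPKM in male WT libraries. Among female KO libraries the values were 30.2, 34.3, 32.5, 31.9 and 29.2 FPKM, against 30.0, 35.2, 28.3, 33.2 and 29.3 FPKM in female WT libraries. The male KO libraries lay closer together than those of any other group, inside the range of male WT. The log2 difference of KO from WT was -0.07 (95% interval -0.20 to 0.06) in males and 0.02 (-0.11 to 0.15) in females.

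C1qc was the C1q gene with the widest KO difference in females, in values that overlapped. It read 12.6, 15.3, 14.7, 13.3 and 13.9 FPKM in male KO libraries, against 14.0, 13.2, 14.2, 15.7 and 17.2 FPKM in male WT libraries. In females it read 15.5, 18.3, 17.2, 17.1 and 16.4 FPKM in KO libraries, against 15.6, 17.0, 15.4, 13.7 and 13.2 FPKM in WT libraries. Thus 4 of 5 female KO libraries stood at or above 16.4 FPKM, a level that only WT 2 exceeded among female WT libraries. The highest female KO values of C1qc were those of KO 2, 3 and 4, the libraries high in Prl.

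Its log2 difference of KO from WT was 0.17 ± 0.073 in females (SE, limma adjusted p = 0.207) and -0.08 ± 0.073 in males (adjusted p = 0.810). The male KO effect minus the female KO effect was -0.25 (95% interval -0.47 to -0.04, unadjusted p = 0.0246, adjusted p = 0.437), so the difference between the sexes was not called.

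Ratios of the chains within a library remove what scales all of them alike. C1qa over C1qb ran from 1.01 to 1.36 with a median of 1.18 over the 20 libraries, and C1qc over C1qb ran from 0.414 to 0.562 with a median of 0.515. C1qc over C1qb averaged 0.498 ± 0.038 in male KO and 0.504 ± 0.027 in male WT libraries, and 0.535 ± 0.018 in female KO and 0.481 ± 0.052 in female WT libraries (SD, n = 5 each). The ratio was thus most even in female KO libraries and least even in female WT libraries, and the groups overlapped.

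**Figure D2:**
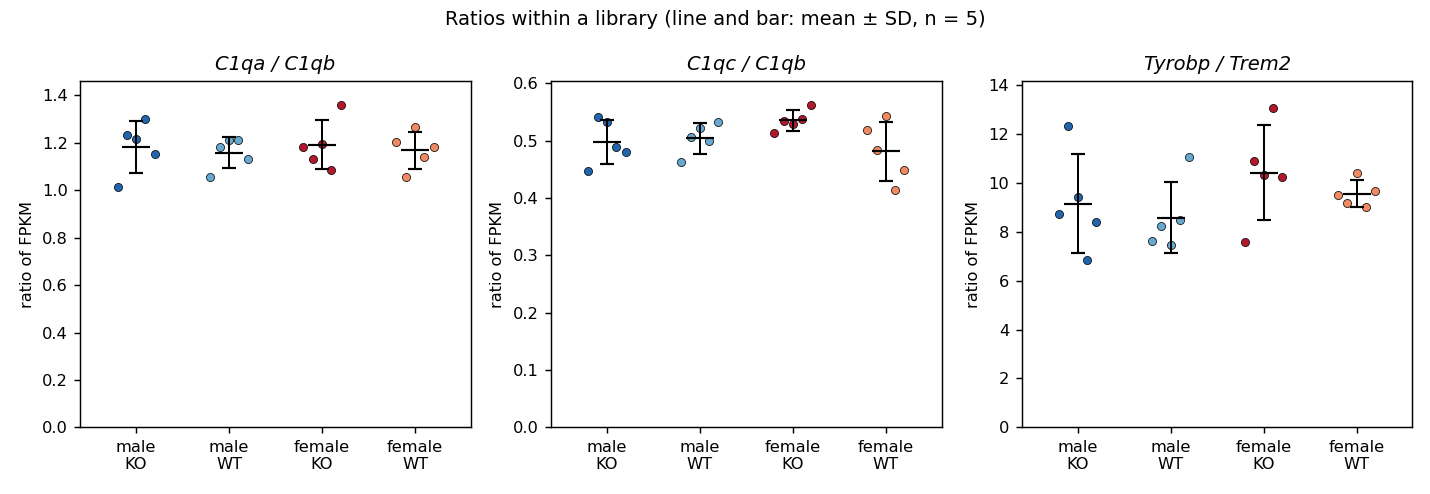
Ratios of FPKM within each library (vertical axes, from 0) for C1qa over C1qb, C1qc over C1qb and Tyrobp over Trem2 in the 5 libraries of each group; points are libraries, and the line and bar give the mean ± SD. All 4 groups overlap in each ratio, and the mean of C1qc over C1qb lies between 0.481 and 0.535.

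Tyrobp, the adaptor gene, and Trem2, the gene of a receptor that uses it, did not pass in a comparison of KO with WT either. Tyrobp read 13.7, 17.6, 15.3, 14.3 and 15.4 FPKM in male KO libraries, against 15.1, 13.6, 11.5, 17.8 and 19.003 FPKM in male WT libraries. The female KO libraries had 15.4, 20.1, 20.1, 19.9 and 17.4 FPKM, against 17.7, 18.1, 17.4, 16.6 and 17.7 FPKM in female WT libraries. Female KO 2, 3 and 4, which are the libraries high in Prl, lay above all female WT libraries and KO 1 lay below all of them. Trem2 averaged 1.71 ± 0.252 FPKM in male KO and 1.80 ± 0.232 FPKM in male WT libraries, and 1.81 ± 0.200 FPKM in female KO and 1.83 ± 0.109 FPKM in female WT libraries (SD, n = 5 each), with log2 differences of -0.05 (95% interval -0.19 to 0.09) in males and -0.02 (-0.16 to 0.13) in females. Tyrobp over Trem2 ran from 6.85 to 13.1 with a median of 9.30.

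Csf1r had the smallest spread within groups of the 10 genes, and its female KO values lay mostly below those of WT without passing. It read 13.7, 15.1, 14.3, 14.9 and 14.7 FPKM in male KO libraries, against 14.4, 14.3, 16.5, 14.9 and 15.3 FPKM in male WT libraries. In females it read 15.6, 15.4, 14.7, 13.4 and 14.8 FPKM in KO libraries, against 16.5, 16.1, 17.0, 15.97 and 14.9 FPKM in WT libraries. Of the female WT libraries 4 lay above all female KO libraries, and the fifth, WT 5, lay within the KO range.

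The log2 difference of Csf1r was -0.12 ± 0.046 in females (SE, limma adjusted p = 0.159) and -0.05 ± 0.046 in males (adjusted p = 0.829). The mean effect of both sexes was -0.08 (95% interval -0.15 to -0.02, adjusted p = 0.173), an interval that reaches no further than -0.15 on the log2 scale. The CSF1R ligand genes of the same libraries, Csf1 and Il34, averaged 3.59 ± 0.397 and 11.3 ± 1.88 FPKM in male KO against 3.51 ± 0.259 and 11.1 ± 1.93 FPKM in male WT, and 3.91 ± 0.285 and 13.8 ± 0.964 FPKM in female KO against 4.19 ± 0.540 and 11.5 ± 1.88 FPKM in female WT libraries (SD, n = 5 each). Of 12 ligand genes of these receptors, 0 passed in any of the 6 comparisons, where 0.0455% to 5.38% of all tested genes passed.

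P2ry12 and Cx3cr1 were the least even of the set. P2ry12 read 20.3, 6.47, 11.2, 18.4 and 18.9 FPKM in male KO libraries, against 21.7, 23.5, 17.6, 21.0 and 12.3 FPKM in male WT libraries. Among female KO libraries the values were 16.4, 14.3, 18.2, 12.9 and 12.8 FPKM, against 21.1, 13.4, 12.0, 21.9 and 14.7 FPKM in female WT libraries. Male KO 2 was the lowest of all 20 libraries, and KO and WT overlapped in both sexes. The 95% interval of the log2 difference ran from -0.92 to 0.11 in males and from -0.64 to 0.40 in females, too wide to show a change of the size seen for Csf1r.

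Cx3cr1 read 9.62, 2.52, 5.06, 3.06 and 5.79 FPKM in male KO libraries, against 2.27, 10.7, 4.74, 4.03 and 2.83 FPKM in male WT libraries. In females it read 2.48, 2.52, 3.71, 2.15 and 2.32 FPKM in KO libraries, against 2.61, 10.3, 1.90, 5.92 and 11.7 FPKM in WT libraries. The female KO libraries were all low, and female WT libraries fell on both sides of them. The log2 difference was -0.82 in females (95% interval -1.66 to 0.01, limma p = 0.0528, adjusted p = 0.262) and 0.11 in males (-0.72 to 0.95, adjusted p = 0.970), and the exact permutation test in females gave p = 0.127. Across the 20 libraries the widest gap lay between 5.92 and 9.62 FPKM, with 4 libraries above it, 1 male KO, 1 male WT and 2 female WT.

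Within groups the SD of Cx3cr1 on the log2(FPKM + 1) scale was 0.68 and that of P2ry12 0.42, against 0.10 for C1qa and C1qb, 0.12 for C1qc and 0.07 for Csf1r. Among tested genes within 1.5-fold of the same mean level, 98.9% of 3155 had a smaller SD than Cx3cr1 and 97.2% of 2280 had a smaller SD than P2ry12, while 28.1% of 2348 had a smaller SD than Csf1r. In GENCODE M21, Cx3cr1 has 3 transcripts, of which 1 spans 166668 bases and makes the gene model overlap Gorasp1, Csrnp1 and Xirp1 on the same strand and Wdr48 and Ttc21a on the opposite strand. P2ry12 has 5 transcripts and lies inside the span of Med12l, which is on the opposite strand. C1qa and C1qb have 1 transcript each and overlap no other gene. Csf1r, the most even of the set, has 6 transcripts and overlaps Mir6983 on the same strand and Hmgxb3 on the opposite strand. Aif1 has 7 transcripts and an SD of 0.21.

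The sources used here give neither the strand setting nor how shared reads were assigned, so values of overlapping genes are uncertain. The levels of Cx3cr1 and Gorasp1 had a correlation of -0.482 (Spearman -0.531) over the 20 libraries as deviations from group means, which did not pass in a permutation test adjusted over 5 such pairs (adjusted p = 0.276 and 0.164), and r was -0.411 without the 2 libraries farthest from the median of Cx3cr1. The other 4 pairs of a member and an overlapping tested gene had adjusted p-values of 0.356 or more for r. Among tested genes with a mean of at least 1 FPKM, those with 1 annotated transcript had a median within-group SD of 0.12 and a 90th percentile of 0.23, and those with 5 or more had 0.10 and 0.25. The part of the number of transcripts in the spread of Cx3cr1 and P2ry12 was not tested.

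Tmem119 read 5.99, 6.55, 6.85, 5.03 and 5.62 FPKM in male KO libraries, against 6.49, 5.67, 5.90, 6.72 and 6.55 FPKM in male WT libraries. The female KO libraries had 6.72, 8.53, 7.59, 6.13 and 7.23 FPKM, against 6.65, 7.44, 6.72, 5.58 and 5.13 FPKM in female WT libraries. Female KO 2 and 3, both among the libraries high in Prl, were the highest of all 20 libraries, and the groups overlapped. The log2 difference was 0.18 in females (95% interval -0.01 to 0.37, limma adjusted p = 0.294) and -0.06 in males (-0.25 to 0.14, adjusted p = 0.918). Aif1 averaged 3.35 ± 0.570 FPKM in male KO and 3.36 ± 0.578 FPKM in male WT libraries, and 3.55 ± 0.732 FPKM in female KO and 3.65 ± 0.727 FPKM in female WT libraries (SD, n = 5 each), with log2 differences of 0.00 (95% interval -0.27 to 0.26) in males and -0.03 (-0.30 to 0.23) in females.

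**Figure D3:**
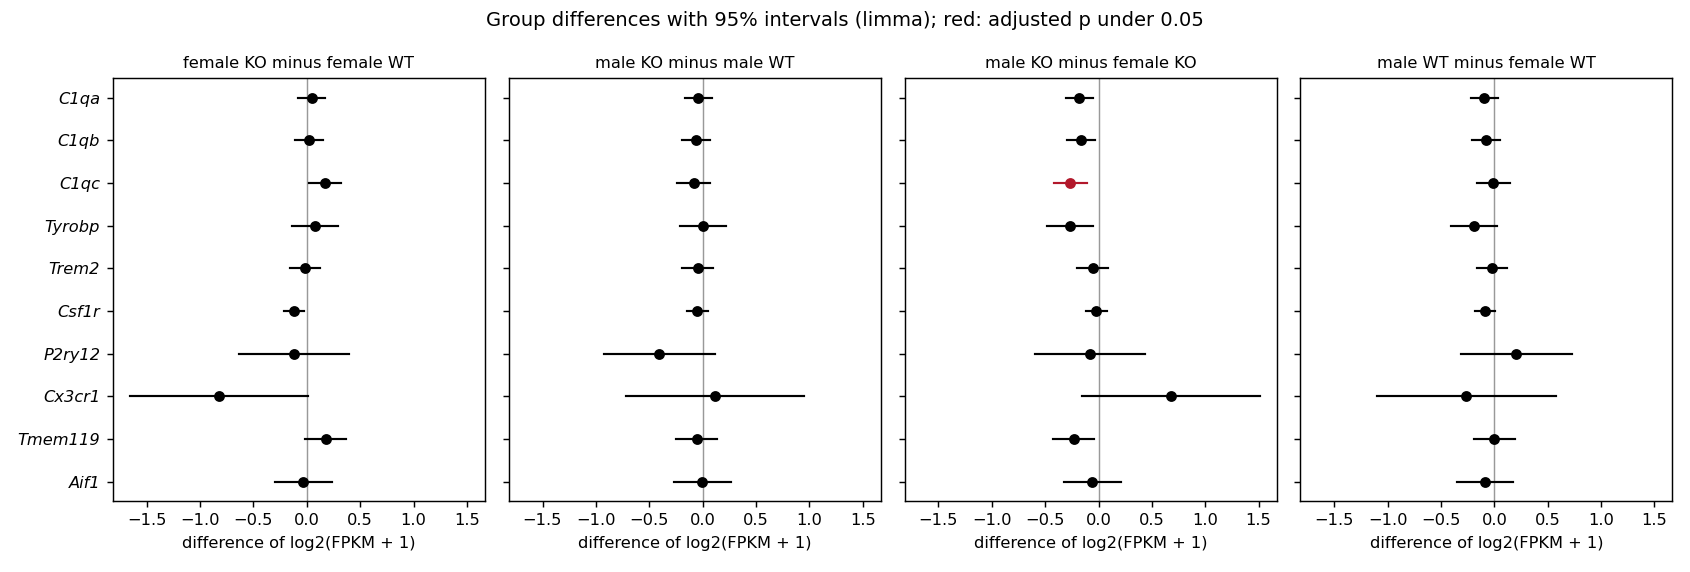
Differences of mean log2(FPKM + 1) for the 10 genes (rows) in 4 comparisons (panels), with 95% intervals from limma; red marks an adjusted p under 0.05. C1qc in male KO minus female KO (-0.26) is the only red point, and the intervals of Cx3cr1 and P2ry12 are the widest.

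Between the sexes, C1qc was the gene of the set that passed, and it did so among KO mice. It was lower in male KO than in female KO libraries, 1 of 10 genes, where 5.38% of all tested genes passed, 2.25% higher and 3.13% lower in males. Its mean was 13.9 ± 1.1 FPKM in male KO and 16.9 ± 1.05 FPKM in female KO libraries (SD, n = 5 each), a log2 difference of -0.26 ± 0.073 (SE, limma adjusted p = 0.0429). All 5 male KO libraries were at or below 15.3 FPKM and all 5 female KO libraries at or above 15.5 FPKM. In male WT against female WT libraries 0 of 10 passed at adjusted or unadjusted p, where 0.129% of tested genes passed (0.0304% lower in males). There C1qc had a log2 difference of -0.01 (95% interval -0.16 to 0.14). The sex difference of C1qc in KO minus that in WT was not called (-0.25, limma adjusted p = 0.437).

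C1qb ranges also did not overlap between male KO libraries, at 27.1 to 28.8 FPKM, and female KO libraries, at 29.2 to 34.3 FPKM, with a log2 difference of -0.17 ± 0.063 (SE, limma adjusted p = 0.112). These were 2 of 10 genes without overlap, where 8.02% of all tested genes had none. C1qa had a log2 difference of -0.18 ± 0.062 (adjusted p = 0.0898), Tyrobp -0.26 ± 0.10 (adjusted p = 0.125) and Tmem119 -0.23 ± 0.091 (adjusted p = 0.128). With C1qb and C1qc these were 5 of 10 genes at an unadjusted p under 0.05, where 23.3% of all tested genes lay under it. Of the 10 genes 9 had a negative difference, Cx3cr1 being the exception at 0.68 (95% interval -0.16 to 1.51), and the median was -0.12 against -0.01 over all tested genes, of which 53.0% were negative. In male WT against female WT libraries 9 of 10 were negative as well, P2ry12 being the exception and Tmem119 at 0.00, where 51.2% of all tested genes were negative. There the median was -0.08 against 0.00 over all tested genes, and the ranges of all 10 genes overlapped, where 2.18% of tested genes had none in common.

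The summed level of C1qa, C1qb and C1qc was 69.0, 78.4, 76.2, 75.7 and 76.0 FPKM in male KO libraries, against 81.4, 91.4, 88.5, 83.7 and 85.4 FPKM in female KO libraries. In WT it was 76.3, 69.9, 74.4, 85.3 and 86.2 FPKM in male libraries, against 81.7, 89.3, 79.5, 84.9 and 77.1 FPKM in female libraries. Male KO and female KO libraries were separate, while male WT and female WT libraries overlapped. Whether the sex difference of the sum differed between KO and WT was not tested. The comparison of male KO with female KO shares the female KO libraries with that of KO and WT in females.

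Border macrophage markers summed to 1.37 to 2.60 FPKM in male KO and 2.38 to 3.92 FPKM in female KO libraries, and their part in the difference was not tested. The female KO libraries were also those with the highest GC slopes. After removal of a smooth trend of each library on GC content, C1qc in male KO minus female KO was -0.17 (adjusted p = 0.191) and C1qa -0.06 (adjusted p = 0.594). The call of C1qc was also lost without the 4 libraries high in Ttr (-0.30, adjusted p = 0.125), without the 3 high in Prl, all female KO (-0.19, adjusted p = 0.423), and when any of male KO 1, 4 or 5 or female KO 2, 3, 4 or 5 was left out (adjusted p up to 0.116).

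**Figure D4:**
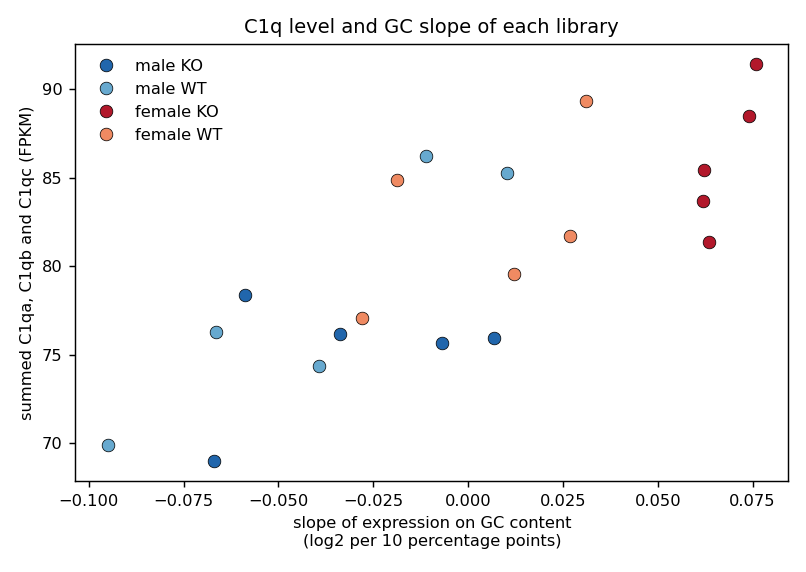
Summed C1qa, C1qb and C1qc (vertical axis, FPKM, not from 0) against the slope of expression on GC content (horizontal axis, log2 per 10 percentage points) in each of the 20 libraries, coloured by group. The 5 female KO libraries lie at slopes of 0.0618 to 0.0759 and sums of 81.4 to 91.4 FPKM, and the 5 male KO libraries at slopes of -0.0669 to 0.00678 and sums of 69.0 to 78.4 FPKM.

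As deviations from group means over the 20 libraries, the correlation with the GC slope was 0.655 for C1qa (Spearman 0.591) and 0.625 for C1qc (Spearman 0.642), with permutation p-values for r adjusted over the 10 genes of 0.0718 each, for rho of 0.115 and 0.108. For C1qb it was 0.449 (Spearman 0.447, adjusted permutation p = 0.205 and 0.156). Without the 2 libraries farthest from the median slope, r was 0.491 for C1qa, 0.560 for C1qc and 0.233 for C1qb. No gene of the set passed in this family of 10 correlations.

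The 10 genes did not move as a single group from library to library. Of their 45 pairwise correlations of deviations from group means over 20 libraries, 27 were positive, with a median of 0.0475, and 2 passed in a permutation test within groups (100000 permutations, adjusted over the 45 pairs). C1qc went with Tyrobp (r = 0.716, rho = 0.762, adjusted p = 0.0155 for r and 0.0045 for rho) and with Tmem119 (r = 0.736, rho = 0.806, adjusted p = 0.0155 and 0.0045). Without the 2 libraries farthest from the median of the gene named first in each pair, r was 0.718 for C1qc and Tyrobp and 0.695 for Tmem119 and C1qc. After the GC trend was removed, C1qc and Tyrobp kept r = 0.693 (adjusted p = 0.0202), and Tmem119 and C1qc had r = 0.684 (adjusted p = 0.0628).

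The 3 C1q genes were related less closely to each other than C1qc was to Tyrobp, a difference that was not tested. C1qa and C1qc had r = 0.605 (rho = 0.594, adjusted p = 0.0970 for r), C1qb and C1qc r = 0.602 (rho = 0.547, adjusted p = 0.136), and C1qa and C1qb r = 0.431 (rho = 0.417, adjusted p = 0.222). P2ry12 and C1qc ran in opposite directions (r = -0.593, rho = -0.574, adjusted p = 0.0970), and neither P2ry12 nor Cx3cr1 passed with any other gene of the set.

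**Figure D5:**
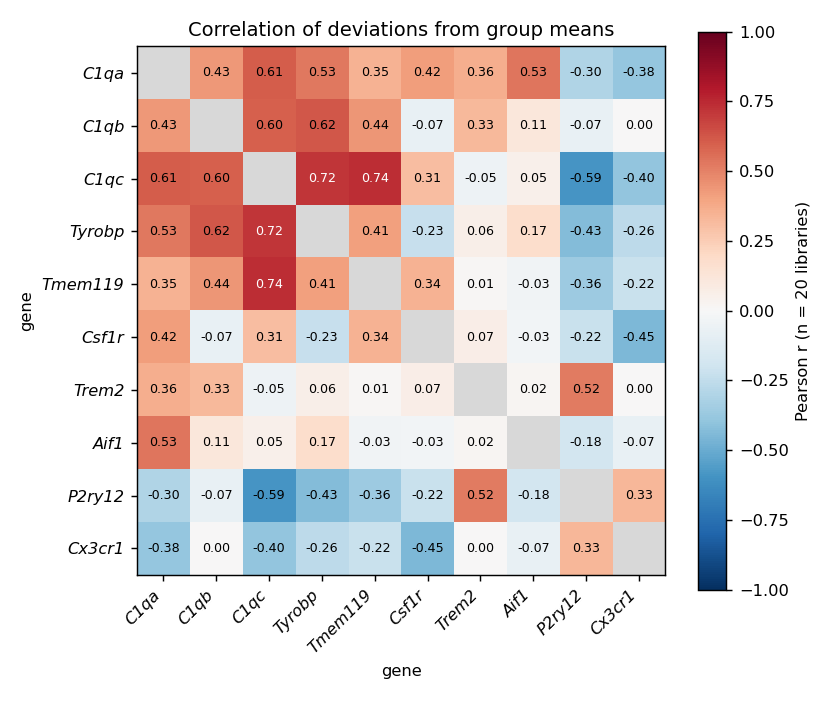
Pearson correlations between the 10 genes (rows and columns) of deviations from group means on the log2(FPKM + 1) scale over 20 libraries; red is positive and blue negative. The block of C1qa, C1qb, C1qc, Tyrobp and Tmem119 is positive throughout, and P2ry12 and Cx3cr1 are at 0.0026 or below with all 5.

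The genes most like the set were sought as those with the highest correlation with the mean deviation of the 10 genes over the 20 libraries. The 10 highest were Lamtor3 at 0.783, Mterf2 at 0.770, Pbrm1 at 0.706, Osgep at 0.704, Surf2 at 0.700, Abhd17c at 0.698, Rab40c at 0.696, Abcb8 at 0.682, Ppme1 at 0.679 and Akip1 at 0.668. None of them was in a list of microglia or complement genes. The mean deviation was dominated by the gene with the widest spread, Cx3cr1, which had a correlation of 0.706 with it, against -0.0192 for C1qc and -0.282 for Csf1r. With each gene scaled to the same spread, an alternative chosen after the values were seen, the highest were Metrn at 0.839, Nudt16l1 at 0.829 and Tmbim6 at 0.820, and the median GC content of the 10 highest was 58.4%.

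Other genes of homeostatic microglia were measured for 28 of 30 listed symbols. Between KO and WT 0 of 28 passed in either sex, where 0.0455% of all tested genes in males and 3.32% in females did. In male KO against female KO libraries 1 of the 28 passed, a share near the 5.38% of all tested genes. It was Fcrls, an Fc receptor-like gene of mouse microglia. It averaged 8.14 ± 0.421 FPKM in male KO and 9.71 ± 0.769 FPKM in female KO libraries (SD, n = 5 each), a log2 difference of -0.23 ± 0.050 (SE, limma adjusted p = 0.0192). The call was lost without male KO 1 (adjusted p = 0.0592), without the 4 libraries high in Ttr (adjusted p = 0.150) and without the 3 high in Prl (adjusted p = 0.103), and it was kept with the GC trend removed (-0.22, adjusted p = 0.0419).

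Of 23 measured genes of disease-associated microglia, 1 passed in females, 0 in males and 1 for the mean effect, in both cases Lpl, the lipoprotein lipase gene, lower in KO. Over all tested genes 3.32% passed in females, 0.0455% in males and 3.22% for the mean effect, so these counts are near the share over all genes. Lpl averaged 5.79 ± 0.281 FPKM in male KO and 6.66 ± 0.125 FPKM in male WT libraries, and 5.08 ± 0.495 FPKM in female KO and 6.23 ± 0.764 FPKM in female WT libraries (SD, n = 5 each). Its log2 difference was -0.25 ± 0.063 in females (SE, limma adjusted p = 0.0364) and -0.21 ± 0.045 for the mean effect (adjusted p = 0.0158). The mean effect was no longer called without the 4 libraries high in Ttr (adjusted p = 0.0961) or the 3 high in Prl (adjusted p = 0.166), and the call in females was lost without any of female KO 2, 3, 4 or 5 or female WT 4 or 5 (adjusted p up to 0.0969) and with the GC trend removed (adjusted p = 0.0861). Between the sexes within KO, 1 of 23 passed, where 5.38% of all tested genes did: Ctsd, the cathepsin D gene, at 69.9 ± 3.62 FPKM in male KO and 83.7 ± 6.83 FPKM in female KO libraries (log2 difference -0.26, adjusted p = 0.0162, and 0.121 with the GC trend removed, 0.0506 without male KO 1).

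The complement cascade beyond C1q was represented by 7 of 24 listed genes. In each of the 6 comparisons 0 of 7 passed, where 0.0455% to 5.38% of all tested genes passed. C4b, which encodes complement C4, averaged 4.18 ± 0.307 FPKM in male KO and 4.29 ± 0.617 FPKM in male WT libraries, and 4.31 ± 0.442 FPKM in female KO and 4.996 ± 0.788 FPKM in female WT libraries (SD, n = 5 each). In females the smallest p-values of the list were those of Vtn, the vitronectin gene, with a log2 difference of 0.23 (limma adjusted p = 0.164), and Masp1, a protease gene of the lectin pathway, at -0.21 (adjusted p = 0.194). The other 17 listed genes, C3 among them, were not analysed here.

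Complement receptors and regulators were measured for 20 of 26 listed genes, and 1 passed in females, where 3.32% of all tested genes did: Calr, which encodes calreticulin, a chaperone of the endoplasmic reticulum that can also bind C1q at the cell surface. Calr read 116, 122, 117, 118 and 119 FPKM in male KO libraries, against 111, 121, 107, 117 and 115 FPKM in male WT libraries. Among female KO libraries the values were 140, 146, 147, 134 and 148 FPKM, against 116, 127, 120, 117 and 123 FPKM in female WT libraries. All 5 female KO libraries were above the other 15. The log2 difference of KO from WT was 0.24 ± 0.036 in females (SE, limma adjusted p = 0.0029). In males 0 of the 20 genes passed, where 0.0455% of all tested genes did, and the KO and WT values of Calr overlapped. The mean effect of Calr over both sexes was 0.15 ± 0.026 (adjusted p = 0.0052), where 3.22% of all tested genes passed. In male KO minus female KO the log2 difference of Calr was -0.27 ± 0.036 (adjusted p = 0.00077). Its call between KO and WT in females was lost without the 3 libraries high in Prl (0.25, adjusted p = 0.0745).

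In male KO against female KO libraries 2 of the 20 genes passed, Calr and Cd59a, both lower in males. Over all tested genes 5.38% passed there, 3.13% lower in males. Cd59a encodes an inhibitor of the membrane attack complex. It averaged 2.59 ± 0.506 FPKM in male KO and 5.04 ± 1.88 FPKM in female KO libraries (SD, n = 5 each). The log2 difference was -0.71 ± 0.19 (SE, limma adjusted p = 0.0402). Cd59a has a closely related copy, Cd59b, with which it can share reads, and its call was lost when any of 8 of the 10 libraries was left out (all but male KO 3 and female KO 1, adjusted p up to 0.0927).

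Genes of the wider C1q-like family and of signalling below TYROBP and CSF1R gave few calls. In male KO against female KO libraries, where 5.38% of all tested genes passed, the counts were near that share. In male KO against female KO libraries 1 of 12 C1q-like genes passed, C1qtnf4, at a log2 difference of -0.41 (limma adjusted p = 0.0326, and 0.220 with the GC trend removed), a call lost when any library other than male KO 5 was left out (adjusted p up to 0.0762). In the same comparison 1 of 17 signalling genes passed, Dok3, which encodes an inhibitory adaptor of immune cells, at -0.37 (adjusted p = 0.0258, and 0.151 with the GC trend removed), lost without male KO 2 or female KO 3 or 5 (adjusted p up to 0.0600). Between KO and WT 0 genes of either list passed in either sex, where 0.0455% of all tested genes in males and 3.32% in females did. Of 13 measured inflammatory mediators 0 passed in any comparison, where 0.0455% to 5.38% of all tested genes passed. Nfkbia, an inhibitor of NF-kB, was closest in females at 0.32 (adjusted p = 0.108).

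The calls of Ctsd, Cd59a, C1qtnf4 and Dok3 in male KO against female KO libraries were also lost without the 4 libraries high in Ttr, with adjusted p-values of 0.107, 0.283, 0.143 and 0.123, and without the 3 high in Prl, with 0.103, 0.204, 0.250 and 0.172. The call of Lpl in females was lost without these libraries too, at adjusted p-values of 0.247 without the libraries high in Ttr and 0.524 without those high in Prl.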

How the data were processed

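The deposited values are FPKM per gene, 1 table per library, which the authors made with FastQC, HISAT2 and StringTie on the build mm10, per the submitters' processing notes. Tool versions, annotation release and strand use are not stated there. FPKM hold no counts, so depth and counting error are unknown. Total RNA was extracted with TRIzol and libraries were made with a SMARTER mRNA-seq kit, per the labels' protocols. Groups and replicate numbers come from the titles.

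Values were taken as log2(FPKM + 1), which understates changes of low genes, and genes reaching 0.5 FPKM in at least 5 libraries entered a limma-trend fit of 4 group means (limma 3.58.1 in R 4.3.3). P-values were adjusted over all 13174 tested genes (Benjamini-Hochberg), and calls need an adjusted p under 0.05. The fit was tested on simulated data. Permutation tests and correlations used Python 3.11.15, NumPy 2.4.6 and SciPy 1.17.1. GC content, transcripts and overlaps come from GENCODE M21, and promoters from RefSeq. The GC trend was a loess curve per library (span 0.5).

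The genes and lists were chosen with earlier results of these data known. Named are all 10 genes, from each list those past the threshold or else up to 2 with the smallest p, the 10 most alike genes, and Fmr1, Ttr and Prl. The result of a listed gene is not reported here. C4b, Csf1, Il34, Cx3cl1 and Mrc1 were named after their values were seen. Alternatives are robust empirical Bayes, upper-quartile rescaling, a filter of 2 FPKM or none, a pseudocount of 0.1, only the groups compared, library weights, a replicate block, the GC trend removed, and leaving out libraries.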

Additional observations from a re-analysis of the deposited data

Results flagged for a closer look

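Of 40 sets of 5 libraries (10 genes in 4 groups), 1 held a library far from the others by Dixon's criterion, where chance gives about 1 in 20. Cx3cr1 was at 3.71 FPKM in female KO 3, against 2.15 to 2.52 FPKM in the other 4 female KO libraries, a gap of 0.764 of the group's range. The same library had the highest Prl of all 20, at 42.2 FPKM. Its value is inside the range of Cx3cr1 in female WT libraries, at 1.90 to 11.7 FPKM.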

How the results depend on the processing

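Counts of genes of the set past the threshold were 0 under every alternative run for KO against WT in males, in females, for the mean effect, for the difference of the effects and for male WT against female WT. In male KO against female KO the count of 1 (C1qc) became 0 with the replicate number as a block (adjusted p = 0.0641), with the GC trend removed, without the 4 libraries high in Ttr and without the 3 high in Prl. It became 2 in a fit of only the groups compared (C1qb joined, adjusted p = 0.0473), and it was between 0 and 1 when single libraries were left out. Correlated pairs numbered 1 in place of 2 with the GC trend removed, an alternative chosen after the data were seen. Of 1434 values of single genes under alternatives, 79 changed sign, all without a call, and 0 reversed a call. The replicate numbers gave no sign of pairing KO with WT libraries of a sex. There 0 of 10 same-numbered pairs correlated over 0.1 (-0.0667 to 0.0651). That check does not cover male KO with female KO libraries. The block changed no other count of the set.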

Other observations

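Cx3cl1, which encodes fractalkine, the neuronal ligand of CX3CR1, fell into separate levels over the libraries, a gene singled out after its values were seen. It read 19.5, 18.1, 20.3, 31.8 and 23.9 FPKM in male KO libraries, against 15.5, 94.2, 11.5, 99.8 and 21.6 FPKM in male WT libraries. In females it read 28.1, 25.3, 24.4, 115 and 109 FPKM in KO libraries, against 99.6, 24.999, 21.3, 95.6 and 102 FPKM in WT libraries. Thus 13 libraries lay between 11.5 and 31.8 FPKM and 7 between 94.2 and 115 FPKM, 0 of them male KO, 2 male WT, 2 female KO and 3 female WT. The correlation of Cx3cl1 with Cx3cr1 over the 20 libraries, as deviations from group means, was 0.202 (Spearman 0.116, permutation p = 0.451 and 0.665, 1 relation computed) and -0.0960 without the 2 libraries farthest from the median of Cx3cr1. GENCODE M21 gives Cx3cl1 6 transcripts, and what separates the levels was not tested.

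Genes most like the mean deviation of C1qa, C1qb and C1qc, a profile chosen after the values were seen, were Tmbim6 at r = 0.850, Guk1 at 0.832, Zfp768 at 0.825 and Metrn at 0.812 over 20 libraries. The 10 highest had a median GC content of 57.9%, against 49.7% for all tested genes. Of the gene lists, the 10 measured oligodendrocyte markers had the highest median correlation with this profile, a list singled out after the values were seen. All 10 were positive, at 0.0447 to 0.538 with a median of 0.426, against a median of 0.0263 over all tested genes. The 7 other genes of the set had a median of 0.261 and the 23 genes of disease-associated microglia 0.237. The 28 other homeostatic microglia genes had a median of 0.102, from -0.318 to 0.641.

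Markers of other cell types gave calls of their own, beside the differences described above. Neurod6, a transcription factor gene of hippocampal pyramidal neurons, averaged 131.6 ± 1.41 FPKM in male KO and 146.4 ± 5.19 FPKM in male WT libraries, and 117.6 ± 2.63 FPKM in female KO and 138.7 ± 6.97 FPKM in female WT libraries (SD, n = 5 each), with a mean KO effect of -0.19 on the log2 scale (limma adjusted p = 0.00019). Of the 12 neuron markers Fibcd1 was higher (0.17, adjusted p = 0.0310, up to 0.0588 in fits that each left out 1 of 8 libraries). This mean effect of Fibcd1 was also no longer called with the GC trend removed (adjusted p = 0.0678) or with the replicate number as a block (0.0551). Nor was it called without the 4 libraries high in Ttr (adjusted p = 0.09999) or the 3 high in Prl (0.0836). Opalin, a myelin gene, was the 1 of 10 oligodendrocyte markers that passed for the mean effect, at -0.34 (adjusted p = 0.0157). Over all tested genes 3.22% passed there, 1.84% lower in KO. All 10 markers had a negative mean effect, as did 49.1% of all tested genes. In male KO minus female KO, 3 of 12 neuron markers were higher and 1 was lower, where 5.38% of all tested genes passed. Neurod6 was higher (0.16, adjusted p = 0.0127) and Fibcd1 lower (-0.23, adjusted p = 0.0342), calls lost with the GC trend removed (adjusted p = 0.127 and 0.304), that of Fibcd1 also when any of 5 of the 10 libraries was left out (adjusted p up to 0.0874). Prox1 (0.28, adjusted p = 0.0442) and Dsp (0.44, adjusted p = 0.0453) of the dentate gyrus were higher, and Cldn5, 1 of 10 endothelial markers, was lower (-0.35, adjusted p = 0.0334). The calls of Prox1, Dsp and Cldn5 were lost with the GC trend removed (adjusted p = 0.119, 0.0831 and 0.169), and when any of 8, 8 and 6 of the 10 libraries was left out, in the same order (adjusted p up to 0.106, 0.105 and 0.0769). All 5 of these calls between the sexes, from Neurod6 to Cldn5, were lost without the 4 libraries high in Ttr (adjusted p = 0.0562 to 0.262). They were also lost without the 3 high in Prl (adjusted p = 0.184 to 0.352). The call of Opalin for the mean effect was lost without the 3 libraries high in Prl (adjusted p = 0.0751).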
